A study of Mus musculus with 8 samples.

Results

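The 8 genes of meiotic crossing over and DNA mismatch repair were taken by symbol from the deposited read counts: *Msh4*, *Msh5*, *Msh6*, *Mlh3*, *Hfm1*, *Rnf212*, *Ccnb1ip1* and *Tex11*. Summing transcript counts per symbol gave 24651 genes, with each transcript that matched no symbol kept as an entry of its own. Of the 8 genes, 7 had at least 1 listed transcript among them, and 5 had enough counts to be compared. The counts came from poly(A)-selected, stranded RNA-seq of whole testes of mixed-strain mice at postnatal day 12, from 4 males labelled wild type and 4 labelled *Morc2b*-/-, each library being made from the testes of 1 animal. The knockout allele lacks exon 2 of *Morc2b*, which holds its whole coding region, in every cell of the animal. The sample labels and the paper's methods call the controls wild type, whereas the design text of the series calls them *Morc2b*+/-. A heterozygous control cannot be told apart from a wild type one here. The comparison asks whether transcripts of the crossover machinery differ between testes with and without *Morc2b*, a germ cell gene of a family of chromatin factors.

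In meiosis, programmed DNA breaks are repaired from the homologous chromosome, and a subset of the repair intermediates matures into crossovers, the physical links that allow homologues to segregate. The MutS proteins MSH4 and MSH5 form a clamp that holds these intermediates, the helicase HFM1 and the TPR protein TEX11 act with them, RNF212 and CCNB1IP1 (also called HEI10) select which intermediates mature, and MLH3, a MutL protein, acts when they are resolved. MSH6 belongs to the same MutS family but works in every dividing cell, where it recognises mispaired bases after replication. The testis at this age holds spermatogonia, early meiotic prophase cells and somatic cells. In such a bulk sample, fewer cells of a type and less RNA per cell cannot be told apart.

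The kinship of the MutS genes is visible in their coding sequence. Each codes for an ATP-binding Walker A motif in the C-terminal part of the protein, and the capitals in the windows of 84 bases printed here mark the 24 bases that code for it. They are shown because *Msh4*, *Msh5* and *Msh6* share this motif and yet had 445, 0 and 80917 counts in all 8 libraries. The windows come from the GENCODE coding sequences on NCBIM37 (mm9), the *Msh4* one from exon 15 of 20 (chr3:153532544-153532627, minus strand), the *Msh5* one from across an intron (chr17:35167689-35168161, minus strand) and the *Msh6* one from across an intron (chr17:88387726-88388498, plus strand).
Msh4: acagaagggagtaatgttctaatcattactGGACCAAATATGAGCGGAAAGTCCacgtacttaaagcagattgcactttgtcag
Msh5: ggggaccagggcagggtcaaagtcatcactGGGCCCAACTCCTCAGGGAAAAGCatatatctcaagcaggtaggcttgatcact
Msh6: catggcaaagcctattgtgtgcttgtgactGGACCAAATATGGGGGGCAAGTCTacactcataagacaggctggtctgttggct
The *Msh4* and *Msh6* windows were identical at 44 of 84 bases (52.4%), *Msh4* and *Msh5* at 39 (46.4%) and *Msh5* and *Msh6* at 35 (41.7%). The longest identical run was 15 bases, between *Msh4* and *Msh6*. Over whole protein-coding transcripts of this annotation, none of the 50-base words of *Msh5*, *Msh6*, *Mlh3*, *Ccnb1ip1* or *Tex11* occurred in another gene. Noncoding transcripts and the rest of the genome were not searched. In *Msh4*, 111 of 4093 such words occurred in other genes, and in *Hfm1* 58 of 5721, none of them in another of the 8 genes.

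Libraries held between 27144796 and 36941755 counts on transcripts (median 31684772). A further share of the uniquely aligned reads, between 26.8% and 28.8%, overlapped more than 1 listed transcript and was set aside. Over all 13507 genes tested, 0 (0%) passed an adjusted p of 0.05 (edgeR quasi-likelihood test), 249 (1.84%) had an unadjusted p under 0.05, and DESeq2 called 1 (*Pkmyt1*). *Morc2b* itself had 428, 443, 24 and 1272 counts in the wild type libraries 1 to 4 and 10, 10, 115 and 2 in the *Morc2b*-/- libraries. The library labelled wild type replicate 3 was thus below the library labelled *Morc2b*-/- replicate 3, and the fold changes of *Morc2b* and of the 5 compared genes were also computed without both. The fold change of *Morc2b* was -4.09 on the log2 scale (SE 1.21; edgeR adjusted p = 0.9998; exact permutation p = 0.0571), and -6.63 without both libraries numbered 3. Most defining genes of the tissue had at least 10 counts in every library: 7 of 8 for Sertoli cells (not *Gata4*), 8 of 10 for spermatogonia (not *Gfra1* or *Kit*) and 19 of 20 for leptotene and zygotene cells (not *Syce3*). *Morc2b*-/- replicate 3 (317 CPM) and wild type replicate 1 (157 CPM) stood apart in the sum of 12 spermatid genes, which was 3.58 to 36.6 CPM in the others. The sum of 8 epididymis genes was 249.7 CPM for wild type replicate 1, 13.5 CPM for *Morc2b*-/- replicate 2 and at most 0.802 CPM elsewhere.

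The genes with 1 listed transcript were well counted, whereas those with more than 1 ranged from well counted to 0. *Msh6* and *Ccnb1ip1*, with 1 listed transcript each, had 80917 and 6479 counts in all libraries together. *Hfm1* and *Tex11*, with 2 each, had 41822 and 30044, of which 41808 and 29840 lay on 1 of the 2 transcripts. *Msh4*, also with 2 transcripts, had 445, split into 392 and 53. *Mlh3*, with 2 transcripts, had 4 counts, 3 from *Morc2b*-/- replicate 3 and 1 from wild type replicate 3. *Msh5*, with 4 listed transcripts, had 0 counts in each of the 8 libraries. *Rnf212* was not matched to a listed transcript and was not analysed here.

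**Figure D1:**
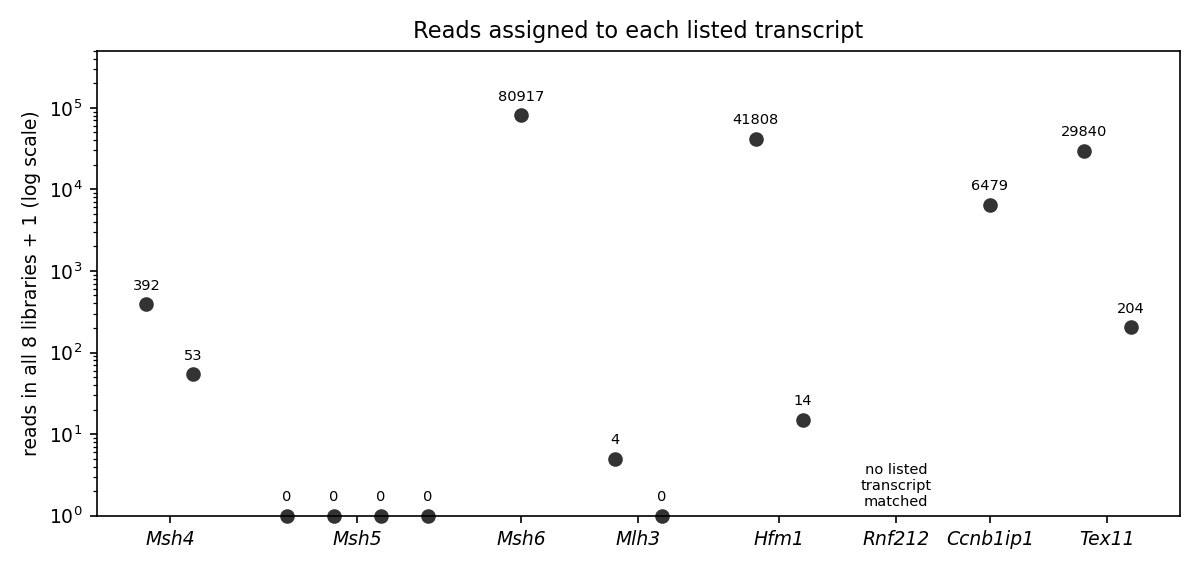
Reads assigned to each listed transcript of the 8 genes, summed over all 8 libraries (vertical axis: reads + 1, log scale; 1 point per transcript, with its read number above it). The 4 transcripts of *Msh5* are at 0 and those of *Mlh3* at 4 and 0, while *Msh6* reaches 80917.

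Counts as low as those of *Msh5* and *Mlh3*, on genes with more than 1 listed transcript, cannot be read as the level of the gene. *Msh3*, a mismatch repair relative of *Msh6*, also had 0 counts, on 2 listed transcripts. Among the genes of the crossover and mismatch repair lists other than the 8 members, 0 of 25 with a single listed transcript had under 10 counts in all, against 3 of 10 with more than 1. Over the whole table the share of genes under 10 counts in all was 27.1% with 1 listed transcript. It was 38.1% with 2, 43.2% with 3 and 45.8% with 4 or more, so 3 of 10 was not above it. The share of genes at 0 in every library was 17.1% of 18581 genes with 1 listed transcript and 19.8% of 3440 with 2. It was 23.0% of 1404 with 3 and 28.5% of 1226 with 4 or more. That reads of *Msh5* and *Mlh3* lay among those set aside was not tested, since the reads themselves were not analysed here.

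The gene models show how much sequence the transcripts of each gene share. In the GENCODE annotation of NCBIM37, which is not the transcript list that was counted, *Mlh3* lies at chr12:86575479-86611541 on the minus strand with 4 transcripts, and 2.69% of its exonic bases (149 of 5542) belong to only 1 of them. *Msh5* lies at chr17:35165550-35183690 on the minus strand with 13 transcripts and 20.2% of exonic bases in only 1. The share was 30.2% for *Msh4* (chr3:153520111-153569102, minus strand), 19.9% for *Hfm1* (chr5:107269211-107355340, minus strand) and 9.55% for *Tex11* (chrX:98033987-98255006, minus strand). *Hfm1* and *Msh5* had almost the same share in this annotation. Their share among the listed transcripts, which had 41822 and 0 counts, was not computed. *Msh6* (chr17:88374390-88390223, plus strand) and *Ccnb1ip1* (chr14:51408924-51415403, minus strand) have 1 annotated transcript each, and 25 exonic bases of *Msh6* (0.588%) overlap exons of *Fbxo11*. *Rnf212* is annotated at chr5:109158481-109178467 on the minus strand with 6 exons.

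For *Msh5*, the study also designed a pair of real-time PCR primers, which are shown because they mark the stretch of the transcript where this gene can be measured when the counts are at 0.
Forward: gagtctcacccctcggtgta
Reverse: gtgtaaaccacagcctgagc
The forward primer matched NCBIM37 at chr17:35179084-35179103 in exon 8 of 24, on the strand of the gene. The reverse primer crossed an exon junction (chr17:35176271-35178420). Together they enclosed 121 bases of the 2886-base *Msh5* transcript and were both present in 4 of its 9 coding transcripts. From its own processing of the RNA-seq reads, the paper reports *Msh5* as downregulated in *Morc2b*-/- testes, which the counts used here cannot address. It also reports that real-time PCR on independent testes at day 12 bore out the difference for every gene it chose to check. The PCR measurements were not analysed here.

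None of the 5 genes with enough counts passed the test between the genotypes. The count called was 0 of 5 at an adjusted p of 0.05, against 0% of all genes tested, and 0 of 5 had an unadjusted p under 0.05, against 1.84% of all genes. For each of them the wild type and *Morc2b*-/- libraries overlapped. What follows gives each gene by its role, in CPM (counts per 1000000 counts on transcripts, TMM-normalized), with fold changes of *Morc2b*-/- over wild type on the log2 scale from edgeR. Every adjusted p of these 5 genes was 0.9998 in edgeR. The exact two-sided permutation test of each gene, over all 70 assignments of 4 libraries to each genotype, could give no p below 0.0286.

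**Figure D2:**
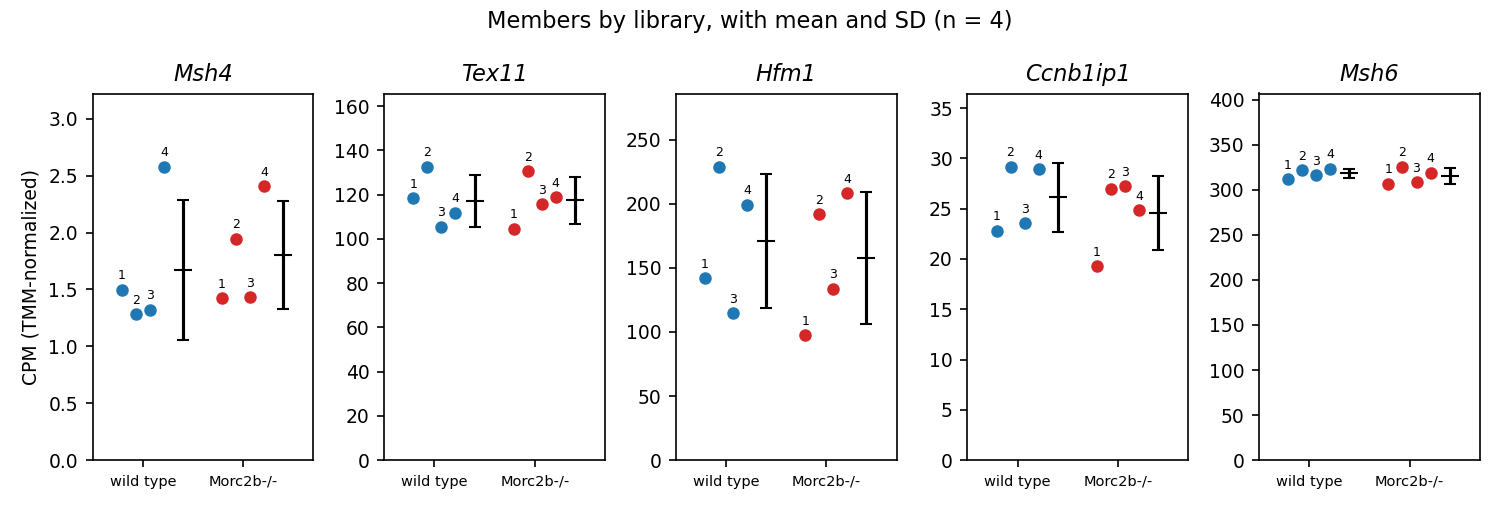
CPM of 5 crossover and mismatch repair genes in each library (points, numbered by replicate; blue, wild type; red, *Morc2b*-/-), with mean and SD in black (n = 4 per genotype; each panel has its own axis from 0). The genotypes overlap in every panel, *Hfm1* spans 97.3 to 229 CPM and *Msh6* only 307 to 325 CPM.

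*Msh4*, the recombination clamp subunit, was the least counted of the 5. Its counts were 55, 35, 37 and 82 in the wild type libraries and 44, 72, 50 and 70 in the *Morc2b*-/- libraries, which gave 1.50, 1.28, 1.32 and 2.58 CPM and 1.42, 1.95, 1.43 and 2.41 CPM. Replicate 4 was the highest of each genotype, and the ranges overlapped almost wholly. The means were 1.67 ± 0.612 CPM in wild type and 1.80 ± 0.472 CPM in *Morc2b*-/- (SD, n = 4 each), a log2 fold change of 0.11 (SE 0.29, 95% interval -0.54 to 0.76; exact permutation p = 0.657). Counting error alone was 11.0% to 16.9% of a library's value, and the interval allows anything from 0.686 to 1.69 times the wild type level. Without *Morc2b*-/- replicate 4 the log2 fold change was -0.06. These values cover the reads that could be assigned to 1 of 2 transcripts, so they are a floor for the gene.

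*Hfm1*, which codes for a meiotic DNA helicase of the crossover pathway, differed most among libraries. It stood at 142, 229, 115 and 199 CPM in wild type and at 97.3, 192, 134 and 208 CPM in *Morc2b*-/-. Replicates 2 and 4 of both genotypes were high and replicates 1 and 3 of both were low, so the highest library held 2.35 times the level of the lowest while the genotypes overlapped. The means were 171 ± 52.1 CPM and 158 ± 51.4 CPM (SD, n = 4 each), a log2 fold change of -0.12 (SE 0.27, 95% interval -0.73 to 0.50; exact permutation p = 0.686). The interval runs from 0.602 to 1.41 times the wild type level. With 3009 to 7092 counts per library, counting error was 1.19% to 1.82%. The sign rested on single libraries, since the log2 fold change was 0.06 without wild type replicate 2 and 0.05 without *Morc2b*-/- replicate 1.

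The spread of *Hfm1* was unusual for a gene of its level. The SD of its log2 CPM within genotype was 0.48, against a median of 0.19 over all genes tested, and 99.5% of the 2842 genes within 2-fold of its level had a smaller SD. The sum of early meiotic genes moved with it, though not every gene of the list did. The 20 genes of the leptotene and zygotene list, none of them among the 8 genes, had sums of 3327, 4529, 3085 and 4496 CPM for the wild type libraries and of 2828, 3664, 2916 and 4562 CPM for the *Morc2b*-/- ones. The 4 libraries highest in this sum were also the 4 highest in *Hfm1*, and *Morc2b*-/- replicate 1 was the lowest in both. Of the 19 list genes tested, 11 had the same 4 highest libraries as *Hfm1*, as did 7.91% of all genes tested, and 8 did not. The sum is weighted to abundant genes such as *Sycp2* and *Stag3*, with means of 783 and 680 CPM in wild type. *Sycp2* was among the 8 and *Stag3* among the 11. Of the 8, *Rec8*, which codes for a meiotic cohesin subunit, was lowest (70.3 CPM) in wild type replicate 2, the library highest in *Hfm1*, and *Prdm9*, the hotspot methyltransferase, was lower for wild type replicate 4 (92.6 CPM) than for wild type replicate 3 (105 CPM). This tally and these examples were chosen after the values were seen. Of the 20 list genes, 19 were tested and 0 were called, with 14 below 0 and 5 above 0 in log2 fold change (median -0.05, against 0.0022 for all genes). The summed spermatogonia genes ran the other way within each genotype, so that replicates 1 and 3 lay above replicates 2 and 4. The sums were 1535, 1498, 1691 and 1342 CPM for the wild type libraries and 1611, 1552, 1669 and 1484 CPM for the *Morc2b*-/- ones. Of the 8 genes of that list that were tested, *Zbtb16*, *Dmrt1* and *Sohlh1* did so in both genotypes. *Uchl1*, *Stra8*, *Nanos3*, *Sohlh2* and *Id4* did not. *Sohlh2* and *Id4* were higher in replicates 2 and 4 than in replicates 1 and 3 of both genotypes. The sums of Sertoli genes lay between 1619 and 1916 CPM. The part of these cell types in the spread of *Hfm1* was not tested, and the labels do not say what a replicate number stands for.

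**Figure D3:**
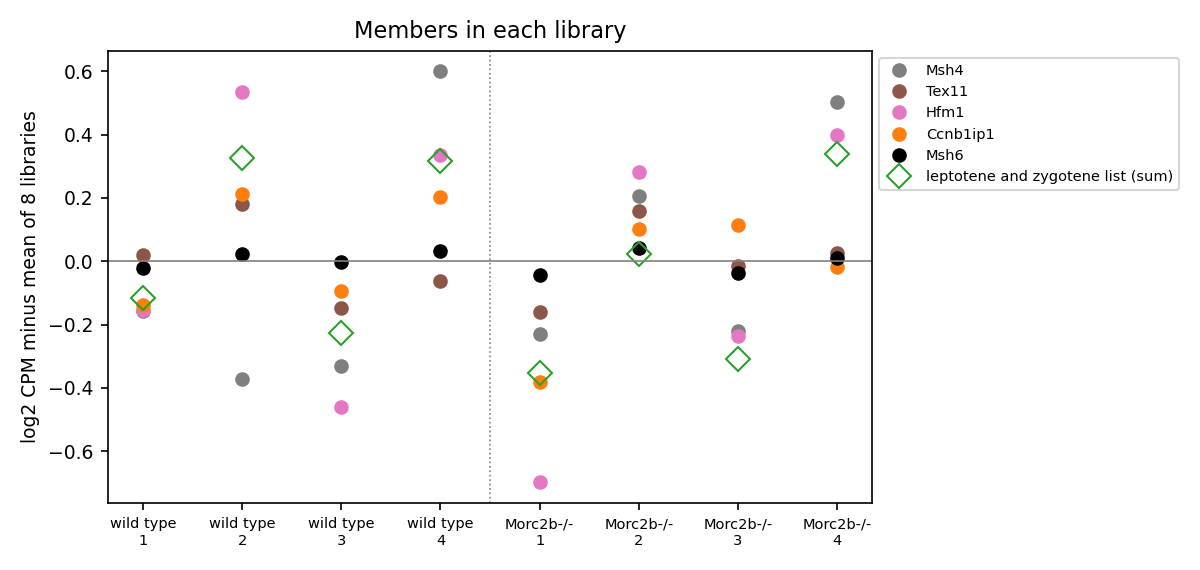
Log2 CPM of each gene minus its mean over the 8 libraries (vertical axis), by library (horizontal axis; dotted line between the genotypes), with the summed leptotene and zygotene genes as open diamonds. *Hfm1* lies above 0 in replicates 2 and 4 of both genotypes and below 0 in replicates 1 and 3, as does the summed list, while *Msh6* stays close to 0 (-0.04 to 0.04).

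*Tex11*, an X-linked gene whose product joins recombination nodules, was steadier. Its values were 119, 133, 105 and 112 CPM in wild type and 105, 131, 116 and 119 CPM in *Morc2b*-/-. Replicate 2 was the highest of each genotype, and the genotypes overlapped almost wholly. The means were 117 ± 11.6 CPM and 117.5 ± 10.6 CPM (SD, n = 4 each), a log2 fold change of 0.01 (SE 0.09, 95% interval -0.20 to 0.21; exact permutation p = 0.971). The interval, 0.874 to 1.15 times the wild type level, is the second narrowest of the 5. The estimate lay so close to 0 that its sign changed to -0.04 without wild type replicate 3, -0.02 without wild type replicate 4, -0.05 without *Morc2b*-/- replicate 2, -0.003 without *Morc2b*-/- replicate 4 and -0.03 without both libraries numbered 3. The less counted of its 2 transcripts, with 204 counts in all, had a log2 fold change of 0.23 (SE 0.23; edgeR adjusted p = 0.9997), and the other 0.0002 (SE 0.09; edgeR adjusted p = 0.9997).

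*Ccnb1ip1*, the ubiquitin ligase that limits which intermediates become crossovers, gave 22.8, 29.2, 23.5 and 28.9 CPM in wild type and 19.3, 27.0, 27.2 and 24.8 CPM in *Morc2b*-/-. *Morc2b*-/- replicate 1 was the lowest of all, and the other 3 *Morc2b*-/- libraries lay inside the wild type range. The means were 26.1 ± 3.41 CPM and 24.6 ± 3.68 CPM (SD, n = 4 each), a log2 fold change of -0.09 (SE 0.13, 95% interval -0.39 to 0.22; exact permutation p = 0.571), or between 0.763 and 1.16 times the wild type level. Without *Morc2b*-/- replicate 1 the log2 fold change was 0.01. Without wild type replicate 1 and *Morc2b*-/- replicate 3, the libraries highest in spermatid genes, it was -0.20, and without both libraries numbered 3 it was -0.19. *Ccnb1ip1* has 1 listed transcript, so its count is not split among isoforms.

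*Msh6*, whose product recognises mispaired bases, was among the least variable genes of the whole data set. It stood at 312, 321, 316 and 323 CPM in wild type and at 307, 325, 309 and 319 CPM in *Morc2b*-/-. The highest library exceeded the lowest by a factor of 1.06, and the genotypes overlapped. The means were 318 ± 5.27 CPM and 315 ± 8.83 CPM (SD, n = 4 each), a log2 fold change of -0.01 (SE 0.04, 95% interval -0.11 to 0.08; exact permutation p = 0.514). A change beyond 0.925 to 1.06 times the wild type level lay outside this interval. The SD of its log2 CPM within genotype was 0.03, smaller than in all but 0.577% of the genes tested and in all but 1.96% of the 1681 genes within 2-fold of its level. Counting error was 0.912% to 1.07%. Its log2 fold change kept its sign when any 1 library was left out (-0.03 to -0.004).

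**Figure D4:**
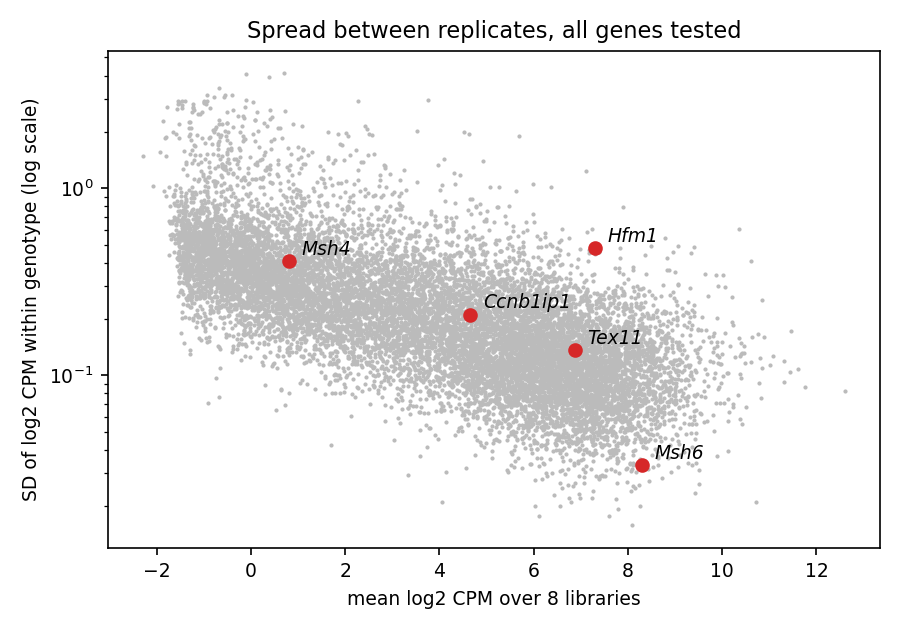
SD of log2 CPM within genotype (vertical axis, log scale) against mean log2 CPM over the 8 libraries (horizontal axis) for the 13507 genes tested (grey), with 5 crossover and mismatch repair genes in red. *Hfm1* (SD 0.48) lies near the top edge of genes of its level and *Msh6* (SD 0.033) near the bottom edge.

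*Hfm1* and *Msh6*, the most and the least variable relative to genes of their level, are shown with the 250 bases before their start sites. The sequences are RefSeq promoters on GRCm38.p6, a later build than that of the counts, and 7 of the 8 genes were matched by symbol (not *Tex11*). Capitals mark a match to CNCCTCAG, the motif reported for the meiosis-entry factor STRA8, searched on both strands.
Hfm1 (chr5:106925891-106926140, minus strand): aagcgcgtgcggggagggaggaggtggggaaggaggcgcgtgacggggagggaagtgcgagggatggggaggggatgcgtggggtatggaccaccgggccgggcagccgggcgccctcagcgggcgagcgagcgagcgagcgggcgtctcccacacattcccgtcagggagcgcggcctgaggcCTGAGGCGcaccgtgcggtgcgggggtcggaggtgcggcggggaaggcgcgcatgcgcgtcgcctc
Msh6 (chr17:87974800-87975049, plus strand): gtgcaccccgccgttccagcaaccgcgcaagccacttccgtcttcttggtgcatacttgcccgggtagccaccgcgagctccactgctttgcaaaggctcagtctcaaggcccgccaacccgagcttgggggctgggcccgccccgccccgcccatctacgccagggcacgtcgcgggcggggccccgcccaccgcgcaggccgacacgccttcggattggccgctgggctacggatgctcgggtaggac
The *Hfm1* promoter holds 1 match, on the opposite strand with its leftmost base at -66 from the start site, and the *Msh6* promoter holds none. Of 32851 promoters, 6.42% hold this motif, and so did 2 of the 7 matched genes, *Hfm1* and *Msh5* (at -82). GC content was 75.6% for *Hfm1* and 70.8% for *Msh6*, against a median of 52.4% over all promoters. AACTG, a core sequence bound by MYB factors, was found in 39.1% of promoters and in 1 of the 7, *Ccnb1ip1* (at -128). Of the E2F-type motifs, TTTCCCGC was found in 0.895% of promoters and in *Msh5* (at -65), and TTTGGCGC in 0.417% and in none of the 7. A match to these letters is a description of the window, not a binding site.

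Per kilobase of the longest annotated coding transcript, *Msh6* had the highest level of the 5. Its level was 74.8 ± 1.24 CPM per kb in wild type and 74.0 ± 2.08 in *Morc2b*-/- (SD, n = 4 each). *Tex11* followed with 35.7 ± 3.55 and 35.8 ± 3.25, and *Hfm1* with 34.3 ± 10.4 and 31.6 ± 10.3, neighbours that did not differ beyond their spread. *Ccnb1ip1* had 17.3 ± 2.26 and 16.3 ± 2.44 CPM per kb. *Msh4* was far below them, at 0.502 ± 0.184 and 0.542 ± 0.142. The values of *Msh4*, *Hfm1* and *Tex11* are floors, because any reads shared by their listed transcripts were set aside and the whole transcript length was divided by. How many such reads each of these genes had was not measured.

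*Pms2* and *Exo1*, with 1 listed transcript each, lay near *Ccnb1ip1* on the same scale. *Pms2*, a MutL gene that acts after a mispair is recognised, had 18.3 ± 2.29 CPM per kb in wild type and 18.5 ± 1.28 in *Morc2b*-/- (SD, n = 4 each). *Exo1*, the exonuclease used in both pathways, had 22.0 ± 0.812 and 22.1 ± 0.605. Their log2 fold changes were 0.01 (SE 0.09) for *Pms2* and 0.0018 (SE 0.05) for *Exo1*, neither past the test.

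The rest of the crossover pathway was compared in the same fit. Of 20 other crossover genes, 17 were matched to a listed transcript and 15 were tested, and 0 of 15 passed an adjusted p of 0.05, the same share as the 0% of all genes. In log2 fold change 12 of the 15 lay below 0 and 3 above, with a median of -0.05 against 0.0022 over all genes tested. The lowest p among them was that of *Rmi1*, a subunit of the complex with BLM and TOP3A that takes intermediates apart. It gave 3.35, 3.41, 3.64 and 2.92 CPM in wild type and 2.33, 2.60, 2.26 and 2.72 CPM in *Morc2b*-/-. Its log2 fold change was -0.43 (SE 0.15; edgeR unadjusted p = 0.0166, adjusted p = 0.9998), 1 of 15 genes at an unadjusted p under 0.05 beside 1.84% of all genes, and it had 3 listed transcripts and 737 counts in all. Without both libraries numbered 3, or without wild type replicate 1 and *Morc2b*-/- replicate 3, 0 of the 15 genes had an unadjusted p under 0.05 in edgeR. Among those above 0, *Rad51ap2* had the lowest p, at 58.9 ± 20.3 CPM in wild type and 64.4 ± 31.9 CPM in *Morc2b*-/- (SD, n = 4 each; log2 fold change 0.13, SE 0.37). *Cntd1*, a cyclin-like crossover factor, is named after its values were seen, as the one with the largest fold change: it had 77.4 ± 54.7 CPM against 43.3 ± 22.1 CPM (SD, n = 4 each; log2 fold change -0.84, SE 0.54; edgeR unadjusted p = 0.152). Its libraries ranged from 23.8 to 153 CPM in wild type and from 20.1 to 69.6 CPM in *Morc2b*-/-, and overlapped.

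The other mismatch repair genes gave no call either. All 18 were matched, 15 were tested, and 0 of 15 passed, with 11 above 0 and 4 below 0 in log2 fold change and a median of 0.01. *Lig1*, the ligase that seals the repaired strand, had the lowest p among those above 0, with a log2 fold change of 0.34 (SE 0.26; edgeR unadjusted p = 0.224) on 207 counts and 3 listed transcripts. *Rpa2*, a subunit of the single-strand binding protein RPA, had the lowest among those below 0, with -0.03 (SE 0.05; edgeR unadjusted p = 0.558).

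**Figure D5:**
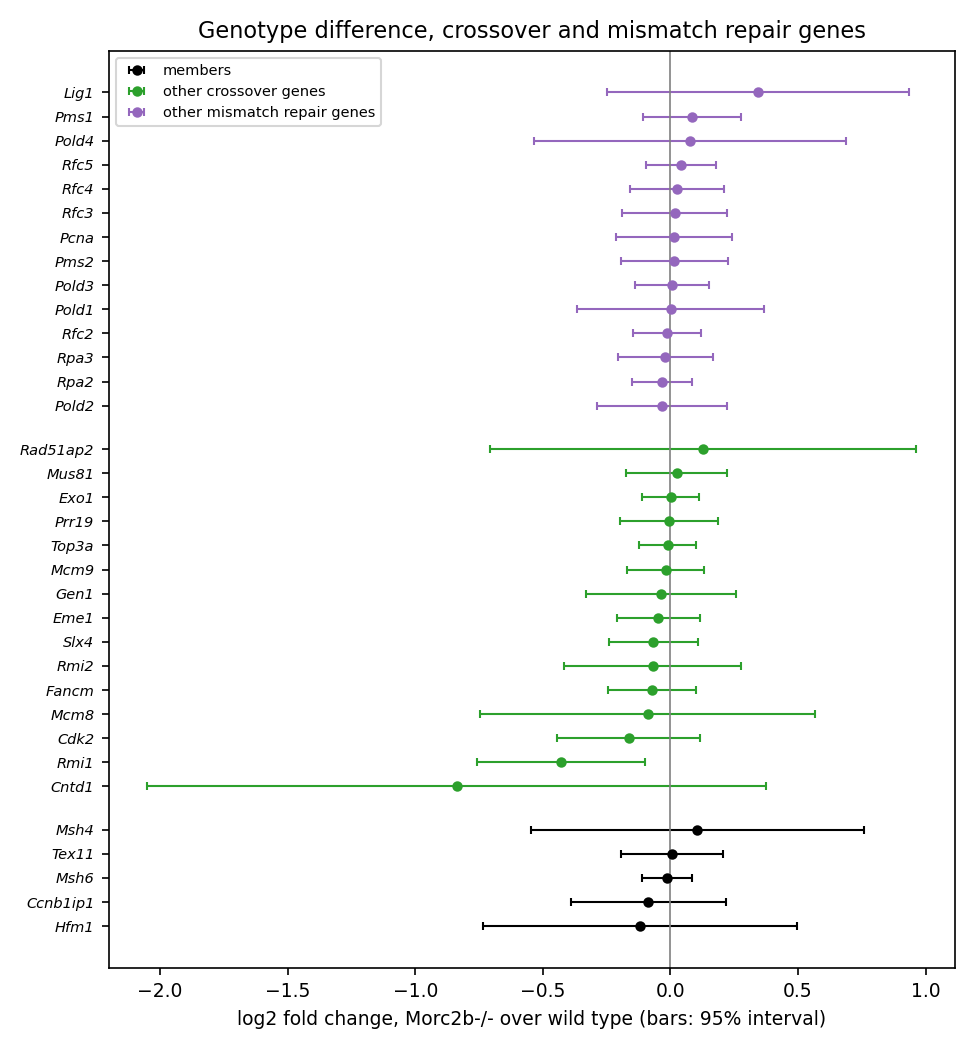
Log2 fold change of *Morc2b*-/- over wild type (horizontal axis) with its 95% interval from edgeR, for 5 crossover and mismatch repair genes (black, labelled members), 15 other crossover genes (green) and other mismatch repair genes (purple). The interval excludes 0 for *Rmi1* only, whose adjusted p was 0.9998, and is narrow for *Msh6* (-0.11 to 0.08) and wide for *Cntd1*.

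The genes whose pattern over the 8 libraries was most like that of each gene were found by the root mean square (RMS) difference of log2 CPM centred on the gene's mean, as a description. For *Hfm1* they were *Spata22*, a partner of the single-strand binding protein MEIOB in meiotic recombination (0.06), *Aspa* (0.07) and *Tex101* (0.08), against an RMS of 0.42 for *Hfm1* around its own mean. *Spata22* is itself on the leptotene and zygotene list and ranged from 30.8 to 63.9 CPM. For *Tex11* they were *Naif1*, *Rfc4*, a clamp loader subunit of the mismatch repair list, and *Supt3* (0.03 to 0.04). For *Ccnb1ip1* they were *Ift81*, *Cdk20* and *Atl1* (each 0.08). For *Msh6* they were *Wdr75*, *Pak1ip1* and *Trip13* (0.01 to 0.02), where *Msh6* itself had an RMS of 0.03 and so hardly a pattern to match. For *Msh4* they were *Septin10*, *Sgk1* and *Myom3* (0.11 to 0.12), at a level where counting error was large. Among the 5 genes the closest pair was *Msh6* and *Tex11* (0.10), and *Hfm1* was nearest to *Ccnb1ip1* (0.29). *Msh6* and *Tex11* were also the flattest of the 5, with an RMS of 0.03 and 0.12 around their own means. Their closeness thus shows little of a shared pattern.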

How the data were processed

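Total RNA of 8 pairs of testes was made into stranded mRNA libraries and sequenced on a NextSeq 500. The authors trimmed and filtered reads and aligned them to mm9 (NCBI37) using Tophat. What was deposited for each library are unnormalized read counts by RefSeq transcript, with no pooling. The submitters' notes also name Cufflinks and Cuffdiff. The counting program and its strand setting are not given in the sources used here. Reads overlapping more than 1 listed transcript are tallied apart and belong to no count. Of 35819 listed transcripts, 35522 were matched to a symbol and summed. The 297 others, with 0.484% of counts, each stayed as an entry of its own among the 24651 genes. The test between genotypes was that of edgeR 4.0.16 under R 4.3.3 (TMM, filterByExpr, quasi-likelihood test, genotype only, Benjamini-Hochberg adjustment over 13507 genes), which was tested on simulated data. DESeq2 1.42.0 and limma 3.58.1 (voom) served as alternatives. Permutation tests used log2 CPM with a prior count of 2. Counting error was the inverse square root of the count. Genes were named by rule: the 8 members, *Morc2b*, the lowest p in each direction of each pathway list, *Pms2* and *Exo1*, and for each member the 3 genes with the nearest pattern. Some genes that this rule names are not reported here. The members and lists were chosen with earlier results of these data known.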

Additional observations from a re-analysis of the deposited data

Results flagged for a closer look

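In 2 of 12 groups of 4 libraries, the gap between an end library and its neighbour exceeded Dixon's critical value at 95%, as a share of the whole range. Chance flags about 1 in 20 such groups. *Msh4* stood at 2.58 CPM in wild type replicate 4, with the next highest at 1.50 CPM among the other wild type libraries (gap over range 0.834). *Morc2b* stood at 3.29 CPM in the library labelled *Morc2b*-/- replicate 3, with 0.0688 to 0.323 CPM in the other 3 (gap over range 0.921).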

How the results depend on the processing

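No setting called any of the 5 genes, and their lowest adjusted p over all settings was 0.985. Over all genes, DESeq2 called 1 gene (*Pkmyt1*, log2 fold change -0.49, adjusted p = 0.00931) where edgeR called 0, and the cause was not tested. The log2 fold change of *Tex11* turned to -0.0017 when at least 10 counts in every sample were required and to -0.034 without both libraries numbered 3, a setting chosen after seeing the data, as was that without wild type replicate 1 and *Morc2b*-/- replicate 3. Leaving out each library in turn gave -0.063 to 0.39 for *Msh4*, -0.28 to 0.056 for *Hfm1*, -0.15 to 0.011 for *Ccnb1ip1*, -0.049 to 0.072 for *Tex11* and -6.23 to -3.26 for *Morc2b*, and called 0 genes each time, with 204 to 504 at an unadjusted p under 0.05. The replicate number as a block called 0 genes with 572 at an unadjusted p under 0.05, against 249 without it, and gave -0.13 for *Hfm1* and 0.13 for *Msh4*. Libraries with the same number did not deviate together in every pair (correlations -0.156, 0.245, -0.322 and 0.453). Wild type and *Morc2b*-/- libraries with different numbers had correlations from -0.498 to 0.614. The numbers were therefore not taken as pairs. Levels per kilobase of sequence unshared by listed transcripts were not run, because the exons of those transcripts were not analysed here. Depth was lowest for *Msh4*, where counting error was 11.0% to 16.9% and the interval spans 0.686 to 1.69 times the wild type level. The spread between libraries was larger than the counting error for each of the 5 genes.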
